A study of Homo sapiens with 12 samples.

Results

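The genes described here are the desaturase FADS1 and 9 other enzymes of fatty acid synthesis, desaturation and elongation: FADS2, FADS3, SCD, FASN, ACACA, ACLY, ELOVL1, ELOVL5 and ELOVL6. They are 10 of the 34318 genes to which transcripts of the deposited table could be assigned. FADS1 was selected on its estimated read counts and TPM, which were lower after the siRNA in these libraries, and the other 9 were taken by function. The FADS1 values after the siRNA are therefore a description, with no test.

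HEK293T cells, a human embryonic kidney line in wide laboratory use, gave all 12 libraries, which were made from messenger RNA with a stranded kit. The 4 groups had 3 libraries each. In the siPOLR3A group POLR3A, which encodes the largest subunit of RNA polymerase III, was the siRNA target, and the siControl group had a control siRNA. Both were collected 2 days after transfection. Other cells were given 0.1% DMSO, the vehicle, or 25 µM ML60218, an RNA polymerase III inhibitor, and were collected after 4 hours. Agent and time both differ between the experiments, and the sources used here name no clone. A passage range of 10 to 25 is given alike for all 12 libraries. The labels do not say whether replicates were separate cultures, so p-values measure the spread between these libraries, which may be technical.

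Mammalian cells build saturated fatty acids in the cytosol. ACLY cuts citrate to acetyl-CoA, ACACA carboxylates it to malonyl-CoA, and FASN joins these units into palmitate. ELOVL6 lengthens palmitate, and SCD places the first double bond in the saturated product. FADS2 and FADS1, the delta-6 and delta-5 desaturases, act in turn on essential fatty acids on the way to arachidonic acid and eicosapentaenoic acid, with ELOVL5 lengthening the intermediate between them. ELOVL1 makes very long saturated chains, and FADS3 acts on sphingoid bases. Many genes of the pathway are known targets of the transcription factor SREBP-1, the product of SREBF1.

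FADS1, FADS2 and FADS3 lie side by side on chromosome 11. On GRCh38 in GENCODE release 29, FADS2 (ENSG00000134824) spans chr11:61792980-61867354 on the plus strand. FADS1 (ENSG00000149485) spans chr11:61799625-61829318 on the minus strand, inside the span of FADS2. FADS3 (ENSG00000221968) spans chr11:61873519-61892051 on the minus strand, 6165 bases beyond FADS2. The strand setting of the authors' counting is not given in the sources used here. Among transcripts that reached 1 TPM, exons of FADS1 and FADS2 overlapped on opposite strands at 142 bases, between FADS1-201 and FADS2-210, and no other pair overlapped. SCD (ENSG00000099194) is at chr10:100347124-100364834 on the plus strand. FASN (ENSG00000169710), ACACA (ENSG00000278540) and ACLY (ENSG00000131473) are on chromosome 17, and ELOVL1 (ENSG00000066322), ELOVL5 (ENSG00000012660) and ELOVL6 (ENSG00000170522) are on chromosomes 1, 6 and 4.

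Promoter entries of FADS1, FADS2 and SCD are shown because these are the members with the lowest log2 fold changes after the siRNA. They are RefSeq sequences on GRCh38.p14, from 250 bases before to 50 after an annotated start. FADS1 is chr11:61816954-61817253 on the minus strand, FADS2 is chr11:61816154-61816453 on the plus strand and SCD is chr10:100346983-100347282 on the plus strand. Capitals mark the GC box (GGGCGG) and the CCAAT box (CCAAT), each searched on both strands, so a GC box on the other strand reads CCGCCC.
FADS1: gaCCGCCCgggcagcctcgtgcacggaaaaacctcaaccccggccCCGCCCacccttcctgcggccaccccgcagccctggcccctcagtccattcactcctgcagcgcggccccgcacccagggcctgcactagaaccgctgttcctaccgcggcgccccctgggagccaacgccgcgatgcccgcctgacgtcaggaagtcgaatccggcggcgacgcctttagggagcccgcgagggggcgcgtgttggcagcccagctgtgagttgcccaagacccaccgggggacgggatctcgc
FADS2: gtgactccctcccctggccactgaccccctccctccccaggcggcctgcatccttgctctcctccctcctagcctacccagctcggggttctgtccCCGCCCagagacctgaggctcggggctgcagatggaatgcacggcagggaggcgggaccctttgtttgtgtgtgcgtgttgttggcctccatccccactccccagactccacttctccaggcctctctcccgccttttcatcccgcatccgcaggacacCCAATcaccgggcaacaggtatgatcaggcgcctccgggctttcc
SCD: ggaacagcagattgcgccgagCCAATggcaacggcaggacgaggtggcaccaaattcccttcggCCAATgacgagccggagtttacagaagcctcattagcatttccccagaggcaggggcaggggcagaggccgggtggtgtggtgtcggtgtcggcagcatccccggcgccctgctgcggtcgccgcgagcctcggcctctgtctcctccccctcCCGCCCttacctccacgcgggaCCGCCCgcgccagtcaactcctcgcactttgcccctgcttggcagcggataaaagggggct
The FADS1 and SCD entries start 159 and 109 bases from the start of the gene's leading transcript. The FADS2 entry shown is the nearer of its pair, but it starts 11357 bases from the start of FADS2-202, the leading FADS2 transcript in these libraries, so it is not the promoter of that transcript. The starts of the FADS1 and FADS2 entries shown lie 599 bases apart, a distance that does not apply to FADS2-202. The FADS1 window held 2 GC boxes and no CCAAT box. The FADS2 window held 1 of each, and the SCD window held 2 of each. In the nearest entries of other members, GC and CCAAT boxes numbered 5 and 2 in FADS3 and 7 and 1 in ACACA. They numbered 4 and 2 in ACLY, 5 and 1 in ELOVL1, 0 and 2 in ELOVL5 and 1 and 0 in ELOVL6. The sequences matched 9 of the 10 genes, all but FASN, and FADS2, ACACA and ACLY had more than 1 entry. In the second FADS2 entry, whose start lies upstream of the one shown, none of the motifs was found. Of 35116 promoters of this length, 45% held a GC box and 34.6% a CCAAT box. The E-box CACGTG was found in the ELOVL5 window only among these genes, against 7.26% of all promoters. The core of the sterol element known from cholesterol genes, TCACCCCAC, was found in 0 of the entries of these genes, against 0.43% of all promoters. None of the 4 motifs overlapped another in the 3 windows shown, and a match is a description of letters only.

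A 6-base word in 3′ UTRs, GAGGGA, was also counted. It was chosen with earlier results of these data known, in which FADS1 had been found to hold it. FADS2 and SCD are shown because they were lower in the same contrast. The counts of FADS1, FADS2 and SCD are therefore no independent support. The word was read on the transcript strand in the GENCODE release 29 sequence of each gene's leading coding transcript. Windows of 20 bases around each copy in FADS1, FADS2 and SCD are shown, with the word in capitals and numbered from the 5′ end of the UTR, on GRCh38.
FADS1 copy 1, chr11:61802331-61802350, minus strand: ggagcttGAGGGAcaatgcc
FADS1 copy 2, chr11:61802192-61802211, minus strand: tccctagGAGGGAaggagct
FADS1 copy 3, chr11:61802088-61802107, minus strand: agaagagGAGGGAcctactg
FADS1 copy 4, chr11:61801794-61801813, minus strand: aacctcaGAGGGAtaaggca
FADS2 copy 1, chr11:61866891-61866910, plus strand: agagcggGAGGGAgtctcag
FADS2 copy 2, chr11:61867024-61867043, plus strand: gagagggGAGGGAgggaagt
FADS2 copy 3, chr11:61867028-61867047, plus strand: ggggaggGAGGGAagtcctg
FADS2 copy 4, chr11:61867173-61867192, plus strand: cagccagGAGGGAcctgcat
SCD copy 1, chr10:100361503-100361522, plus strand: taaggatGAGGGAagcgaag
SCD copy 2, chr10:100362064-100362083, plus strand: ttccaaaGAGGGAtgtttgg
SCD copy 3, chr10:100362154-100362173, plus strand: agaggctGAGGGAcaggatc
FADS1 and FADS2 thus held 4 copies each, the middle pair in FADS2 overlapping, and SCD held 3. FADS3 and ACACA held 1 each, and FASN, ACLY, ELOVL1, ELOVL5 and ELOVL6 held 0. Among 13641 genes scanned alike, 33.07% held at least 1 copy, 5.87% at least 3 and 2.80% at least 4. The UTRs of FADS1, FADS2 and SCD were 2786, 1665 and 3901 bases long, against a median of 977 over the scanned genes. These shares are thus not matched for UTR length. The transcript lengths in the authors' table often differ from this release. For ELOVL6-201 the table gives 6570 bases and the release 3090, so part of that transcript was not scanned. For FADS2-202 the table gives 3091 and the release 3630, and the place of the difference was not examined. All FADS2 copies lie from base 1209 of its UTR onward, so they may be outside the transcript that was counted. FADS1-201 (4364 in the table and 4525 in the release) and SCD-201 (5245 and 5362) differ less. The sequence of the siRNA is not given in the sources used here, and the part of this word in the changes was not tested.

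The libraries held between 37008325 and 49479476 estimated reads. POLR3A itself stood at 86.8 to 93.5 CPM (counts scaled to library size with TMM factors) in siControl and at 14.6 to 19.3 in siPOLR3A, a log2 fold change of −2.36 ± 0.11 (SE; edgeR adjusted p = 1.94e-05). With ML60218 its log2 fold change was −0.38 ± 0.04 (edgeR adjusted p = 0.000229). Of 4 epithelial markers, KRT18 was at 24.5 to 36.7 TPM over all libraries and KRT8, EPCAM and CDH1 were between 1.31 and 6.18 TPM. Of 3 kidney markers, PAX2 was at 3.36 to 5.19 TPM, LHX1 at 0.68 to 1.90 TPM and PAX8 at 0.17 TPM or less. Of 11 markers of other cell types, the fibroblast gene COL1A1 was at 18.2 to 28.1 TPM. COL3A1 and DCN, also of fibroblasts, reached 2.61 and 1.21 TPM. PLIN1, of fat, reached 0.95 TPM, and ADIPOQ and the markers of endothelium and liver at most 0.27 TPM. The blood markers PTPRC and HBB were listed at 0 throughout. COL1A1 (log2 0.32) was called higher after the siRNA, and COL3A1 (−0.58) and DCN (−1.30) lower. Of the 3 of these 11 tested with ML60218, 1 was lower and 0 higher. After the siRNA, EPCAM (log2 0.90), CDH1 (0.47) and KRT18 (0.14) were called higher and KRT8 (−0.56) was not called, and the summed epithelial level was 34.2 to 36.3 TPM in siControl and 38.3 to 41.1 TPM in siPOLR3A. With ML60218, KRT8 (0.56) was called higher and the other 3 were not called. The summed epithelial level was 39.2 to 40.8 TPM in DMSO and 42.8 to 45.2 TPM with ML60218. The summed level of 3 neuronal genes known from this line (NEFL, NEFM and INA) was 165 to 189 TPM in siControl and 88.5 to 93.0 TPM in siPOLR3A, and 125 to 133 TPM in DMSO and 146 to 162 TPM with ML60218. The members of this sum did not move together: after the siRNA NEFM (−1.39) and NEFL (−0.68) fell and INA (0.25) rose, and with ML60218 NEFM (0.16) and NEFL (0.12) rose and INA (−0.15) fell. The part of these markers in the results below was not tested. In bulk RNA, fewer cells of a kind and less RNA per cell cannot be told apart.

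Levels between genes were compared in TPM, which is per transcript length. In siControl the order was SCD (333 ± 15.3 TPM, mean ± SD, n = 3), ACLY (194.5 ± 6.08), ELOVL5 (115 ± 1.86), FASN (99.3 ± 7.13), FADS1 (59.6 ± 1.38), ELOVL1 (59.3 ± 3.65), FADS2 (43.5 ± 1.62), ELOVL6 (33.2 ± 0.80), FADS3 (9.90 ± 0.55) and ACACA (6.63 ± 0.71). Neighbours in this order did not overlap between libraries, except FADS1 and ELOVL1. In siPOLR3A the order was ACLY (232 ± 2.98 TPM), SCD (208 ± 1.04), FASN (135 ± 2.75), ELOVL5 (129.9 ± 2.49), ELOVL1 (68.2 ± 1.75), ELOVL6 (24.9 ± 1.97), FADS1 (19.6 ± 0.56), FADS2 (15.6 ± 0.42), FADS3 (10.7 ± 0.88) and ACACA (7.004 ± 0.57). FADS1 moved from the fifth to the seventh place, and SCD from the first to the second. FASN and ELOVL5 overlapped there, and no other neighbours did. In DMSO and ML60218, SCD (328 ± 13.7 and 353 ± 17.7 TPM) and ACLY (246 ± 11.7 and 261 ± 13.9 TPM) stood highest and FADS1 was in the fifth place in both (73.2 ± 2.10 and 77.4 ± 3.01 TPM). FADS3 (8.56 ± 0.46 and 9.21 ± 1.20 TPM) and ACACA (8.18 ± 0.64 and 10.5 ± 1.16 TPM) were lowest, and their libraries overlapped in both groups.

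**Figure D1:**
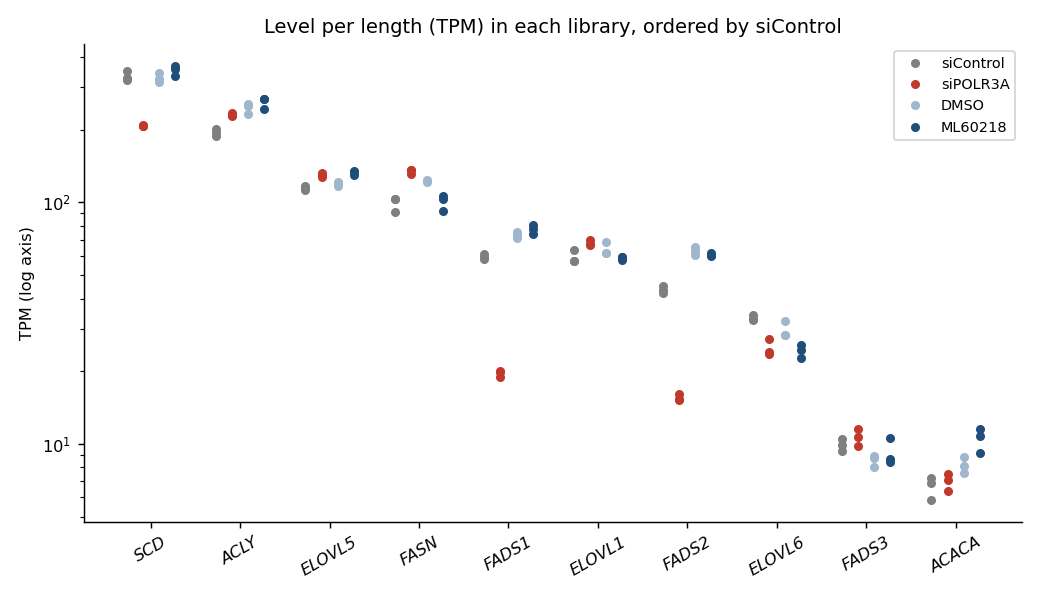
TPM on a log axis for each of the 10 genes, ordered by their siControl mean, with 1 point per library and 1 colour per group. The siPOLR3A points of FADS1 (19.0 to 20.1 TPM) and FADS2 (15.2 to 16.02 TPM) lie far below those of the other 3 groups, while FADS3 and ACACA stay near the bottom in every group.

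The first comparison asked what changed 2 days after the POLR3A siRNA. Among the desaturases, FADS1, FADS2 and SCD were lower and FADS3 was not called. Of the enzymes that supply and build palmitate, FASN and ACLY rose and ACACA was not called, and of the elongases ELOVL6 fell while ELOVL1 and ELOVL5 rose slightly. A gene was called at an edgeR adjusted p under 0.05 over all 15404 genes tested. Without FADS1, 4 members were called higher, 3 lower and 2 not called. Over all genes 56.6% were called, 27.4% higher and 29.2% lower, and the groups' libraries did not overlap for 63.4%. Because the set was drawn from this contrast, nothing is read from the members' count.

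FADS1 stood at 199, 205 and 202 CPM in the siControl libraries and at 57.6, 55.5 and 56.2 CPM in the siPOLR3A libraries. All siPOLR3A libraries were far below all siControl libraries, and replicates were close to each other. The means were 202 ± 2.73 and 56.5 ± 1.08 CPM (SD, n = 3), a level 3.58-fold lower and a log2 fold change of −1.84 ± 0.03 (SE). It rested on 6664 to 7781 estimated reads per siControl library and 1928 to 2228 per siPOLR3A library. This change was the 35th lowest of the 15404.

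FADS2, the desaturase that acts before FADS1, stood at 75.1, 77.1 and 77.9 CPM in siControl and at 23.5, 23.6 and 24.0 CPM in siPOLR3A. The groups were widely separated here too. Its level fell 3.24-fold, a log2 fold change of −1.69 ± 0.03 (SE; edgeR adjusted p = 1.30e-13), the 46th lowest of all genes tested. FADS3, which shares the locus, stood at 12.7 to 13.4 CPM in siControl and at 13.03 to 13.3 CPM in siPOLR3A, and these ranges overlapped. Its log2 fold change was 0.02 ± 0.06 (edgeR adjusted p = 0.796), on 438 to 491 estimated reads per siControl library.

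SCD, the stearoyl-CoA desaturase and the most abundant member per length in siControl, stood at 1364, 1338 and 1321 CPM in siControl and at 829.5, 838 and 819 CPM in siPOLR3A. All siPOLR3A libraries were lower. Its log2 fold change was −0.69 ± 0.02 (SE; edgeR adjusted p = 7.64e-12). ELOVL6, the elongase that supplies SCD with its substrate, stood at 132, 137 and 138 CPM in siControl and at 101, 106 and 103 CPM in siPOLR3A. It fell by a log2 value of −0.40 ± 0.03 (edgeR adjusted p = 3.65e-08).

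FASN, the synthase itself, went the other way. It stood at 378, 377 and 356 CPM in siControl and at 500.2, 546 and 519 CPM in siPOLR3A, with every siPOLR3A library above every siControl library. Its log2 fold change was 0.49 ± 0.04 (SE; edgeR adjusted p = 7.98e-07). ACLY, which feeds FASN with acetyl-CoA, stood at 686, 693 and 685 CPM against 808, 829 and 809.6 CPM. These groups did not overlap either, and its log2 fold change was 0.25 ± 0.02 (edgeR adjusted p = 2.40e-07).

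ACACA, which makes malonyl-CoA, stood at 57.5, 52.9 and 49.8 CPM in siControl and at 48.2, 48.8 and 58.3 CPM in siPOLR3A. The groups overlapped, and its log2 fold change was −0.04 ± 0.10 (edgeR adjusted p = 0.726), with a sign that turned under 5 of the alternative settings and without siControl replicate 1 or siPOLR3A replicate 1. The table held 9 of its 23 annotated transcripts. ELOVL1 rose from 43.1, 46.5 and 50.03 CPM to 53.6, 50.9 and 52.7 CPM, a log2 fold change of 0.17 ± 0.05 (edgeR adjusted p = 0.0107). ELOVL5 rose from 198, 206 and 211 CPM to 227, 223 and 214 CPM, a log2 fold change of 0.11 ± 0.03 (edgeR adjusted p = 0.00466). In both genes the highest siControl library came close to the lowest siPOLR3A library without overlap.

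**Figure D2:**
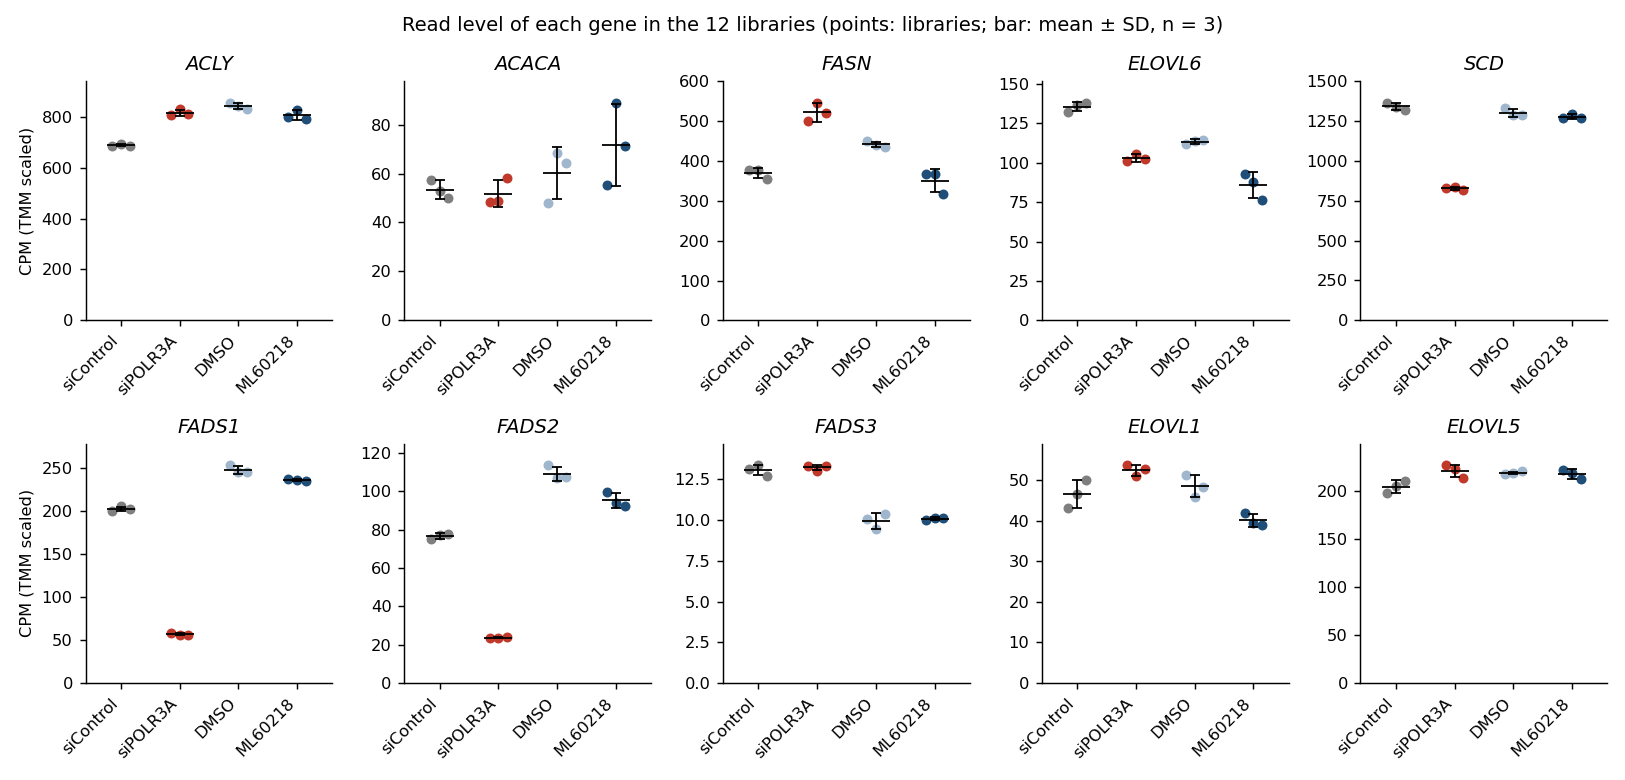
CPM of each gene (vertical axis, from 0) in the 4 groups, with 1 point per library and a bar for the mean ± SD of 3 libraries. FADS1, FADS2, SCD and ELOVL6 are lower in siPOLR3A than in siControl, FASN and ACLY are higher, and the ML60218 points of ACACA spread from 55.2 to 88.9 CPM.

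The deposited rows also show which transcripts carried the changes. FADS1-201, a protein-coding transcript, held 92.1% ± 0.20 (SD, n = 3) of the TPM of FADS1 in siControl. It stood at 56.1, 53.8 and 54.8 TPM in siControl and at 14.7, 14.0 and 14.6 TPM in siPOLR3A. The other 20 FADS1 transcripts together stood at 4.93, 4.49 and 4.78 TPM in siControl and at 5.07, 6.13 and 4.39 TPM in siPOLR3A. The fall was thus seen in FADS1-201, and the remaining rows overlapped between the groups. The share of FADS1-201 was 73.6% in siPOLR3A. By share of estimated reads in place of TPM it was 97.6% in siControl and 90.4% in siPOLR3A.

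FADS2 was spread over more transcripts. FADS2-202 stood at 19.9, 21.1 and 21.2 TPM in siControl and at 5.63, 5.76 and 6.04 TPM in siPOLR3A. FADS2-209 stood at 9.79, 9.20 and 8.49 TPM against 3.37, 3.70 and 3.42 TPM. FADS2-201 stood at 6.59, 4.79 and 4.27 TPM against 1.08, 0.76 and 1.37 TPM. FADS2-210, the transcript with exonic bases opposite FADS1-201, stood at 4.44, 3.84 and 7.67 TPM against 2.23, 2.17 and 0.82 TPM. All 4 were lower in every siPOLR3A library than in any siControl library. The retained-intron transcript FADS2-214 overlapped between the groups (0.84 to 1.498 and 0.72 to 1.08 TPM).

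SCD has a single transcript. For FASN, FASN-201 stood at 78.6, 72.0 and 70.5 TPM in siControl and at 102, 109.6 and 104 TPM in siPOLR3A, while its other 12 transcripts together overlapped (20.5 to 31.0 and 26.9 to 34.7 TPM). ELOVL6-201 stood at 18.1, 17.5 and 17.5 TPM against 12.7, 12.7 and 13.2 TPM, without overlap. ELOVL5-201 came close to overlapping (91.2 to 97.7 TPM in siControl and 98.0 to 104 TPM in siPOLR3A), and ELOVL5-202 was further apart (10.5 to 12.8 and 16.8 to 17.9 TPM).

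**Figure D3:**
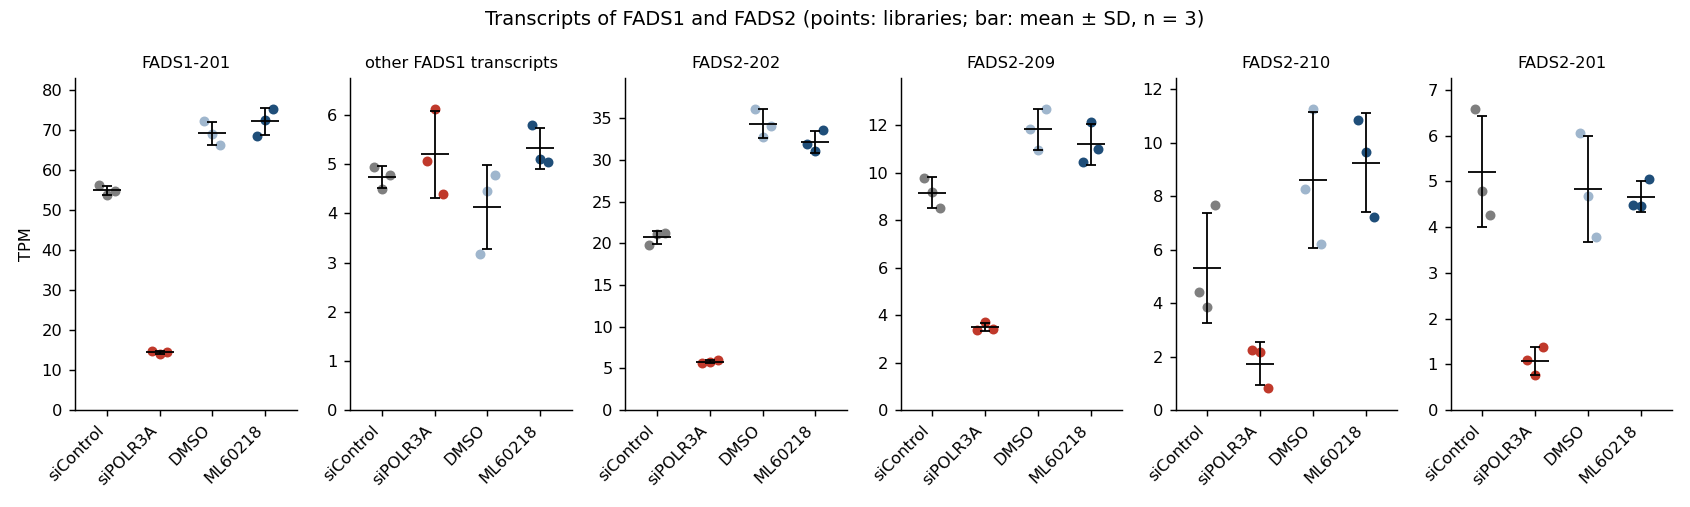
TPM of FADS1-201, of the other FADS1 transcripts summed and of the 4 most abundant FADS2 transcripts, with 1 point per library and a bar for the mean ± SD of 3 libraries on axes that start at 0. FADS1-201 and each FADS2 transcript are lower in siPOLR3A (14.4 and, for FADS2-202, 5.81 TPM on average), while the summed other FADS1 transcripts are not.

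The second comparison asked what changed after 4 hours of ML60218. Of the 10 genes, 4 were called lower, 0 higher and 6 were not called. Over the 15461 genes tested 39% were called, 20.9% lower and 18.1% higher. The libraries of 6 members did not overlap between the groups, against 51.9% of all genes. The 4 calls among 10 members are near the 39% called over all genes in either direction. All 4 were lower, as were 3229 of the 6029 calls over all genes, and with 10 members nothing more is read from this count. FADS2 and ELOVL1 lost the call on TPM, as given below.

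ELOVL6 stood at 112, 114 and 114 CPM in DMSO and at 93.0, 87.6 and 76.6 CPM with ML60218. All treated libraries were lower, with more spread than the vehicle, and the log2 fold change was −0.40 ± 0.06 (SE; edgeR adjusted p = 0.00168). FASN stood at 449, 441 and 435 CPM in DMSO and at 366, 369 and 318 CPM with ML60218, a log2 fold change of −0.33 ± 0.05 (edgeR adjusted p = 0.00176). ELOVL1 stood at 51.3, 45.8 and 48.3 CPM against 42.0, 39.4 and 39.0 CPM, a log2 fold change of −0.27 ± 0.05 (edgeR adjusted p = 0.00322). FADS2 stood at 113, 107 and 107 CPM against 99.6, 93.6 and 92.4 CPM. Its groups did not overlap, and its log2 fold change was −0.20 ± 0.04 (edgeR adjusted p = 0.00470).

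FADS1 stood at 252, 244 and 245 CPM in DMSO and at 237, 236 and 234 CPM with ML60218. The groups did not overlap, but the log2 fold change of −0.07 ± 0.03 did not pass (edgeR adjusted p = 0.0870). SCD was at 1285 to 1331 CPM in DMSO and 1269 to 1293 CPM with ML60218, with a log2 fold change of −0.03 ± 0.03 (edgeR adjusted p = 0.539). ACLY had a log2 fold change of −0.06 ± 0.03 (edgeR adjusted p = 0.137), ELOVL5 of −0.0086 ± 0.03 (0.851) and FADS3 of 0.02 ± 0.07 (0.852). ACACA was at 48.2, 68.4 and 64.3 CPM in DMSO and 55.2, 88.9 and 71.1 CPM with ML60218. Relative to their mean, its replicates spread more than those of any other member. The log2 fold change of ACACA was 0.25 ± 0.24 (edgeR adjusted p = 0.471). It passed with a correction for isoform length (edgeR adjusted p = 0.0479).

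The scale mattered for ML60218. On log2(TPM + 0.5) the median of all genes was 0.13 higher with ML60218, against 0.0054 on TMM-scaled counts, and 82.1% of the calls were higher, against 46.4%. On TPM, FASN (−0.28, limma adjusted p = 0.00815) and ELOVL6 (−0.28, limma adjusted p = 0.0246) were still called lower. FADS2 (−0.05, limma adjusted p = 0.480) and ELOVL1 (−0.12, limma adjusted p = 0.134) were not. ACACA (0.34, limma adjusted p = 0.0374) and ELOVL5 (0.15, limma adjusted p = 0.0300) were called higher, the latter by about the shift of all genes. FADS1, at 0.08, was below that shift and not called (limma adjusted p = 0.266).

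**Figure D4:**
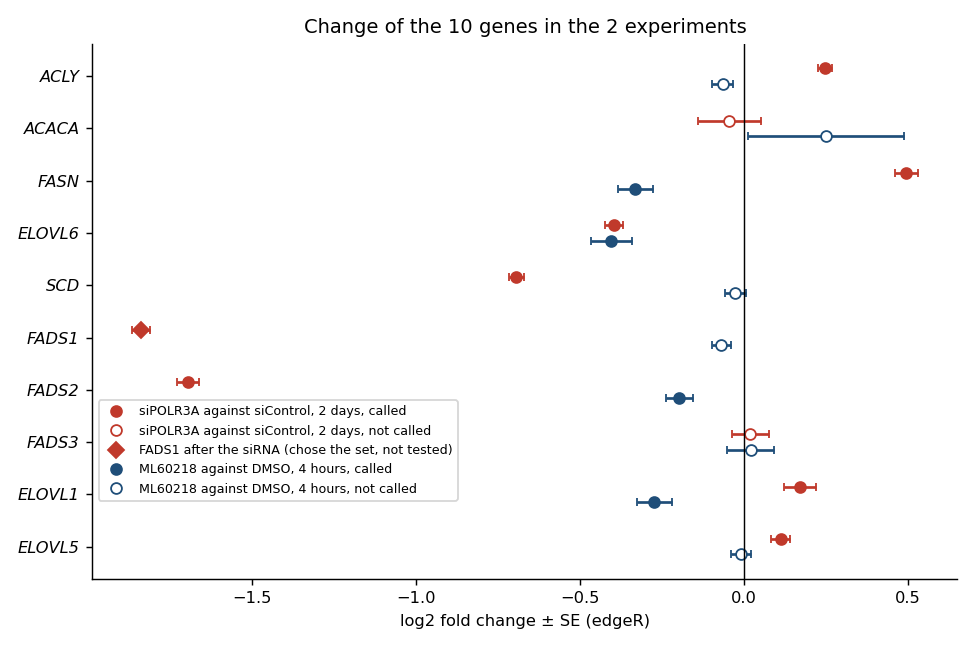
edgeR log2 fold change with its SE (horizontal axis) for each gene after the siRNA (red) and after ML60218 (blue), with filled points for calls, open points for no call and a diamond for FADS1 after the siRNA, which was not tested. FADS1 and FADS2 lie near −1.84 and −1.69 after the siRNA and at −0.07 and −0.20 after ML60218, and FASN lies on opposite sides of 0.

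The ML60218 effect was also subtracted from that of siPOLR3A within 1 model over the 12 libraries, and 50.9% of 15780 genes were called on this difference. Agent, time and control all differ between the experiments and cannot be told apart. For FADS1 the difference was −1.76 ± 0.04 (SE), given as a description. FADS2 differed by −1.49 ± 0.05 (edgeR adjusted p = 7.67e-12) and SCD by −0.66 ± 0.04 (edgeR adjusted p = 8.48e-10). FASN differed by 0.83 ± 0.07 (edgeR adjusted p = 9.78e-07), having risen with the siRNA and fallen with ML60218. ELOVL1 differed by 0.45 ± 0.08 (edgeR adjusted p = 0.000120) and ACLY by 0.32 ± 0.04 (edgeR adjusted p = 3.30e-06). For ELOVL5 the difference was 0.13 ± 0.04 (edgeR adjusted p = 0.0210), and it was not called on TPM (limma adjusted p = 0.687) nor without siControl replicate 1 (edgeR adjusted p = 0.0753), siPOLR3A replicate 1 (0.0630) or siPOLR3A replicate 2 (0.0534). ELOVL6 (0.01 ± 0.07, edgeR adjusted p = 0.898), FADS3 (0.0045 ± 0.08, 0.973) and ACACA (−0.29 ± 0.27, 0.415) did not differ detectably. FADS2 and ELOVL6 were the members called lower in both experiments on TMM-scaled counts, with ELOVL6 at −0.40 in each. On TPM the ML60218 call of FADS2 was not made, while that of ELOVL6 was.

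Genes around the pathway were taken from lists written from general knowledge. No list was tested as a set. Their counts stand against 27.4% of all genes called higher and 29.2% lower after the siRNA, and 18.1% and 20.9% with ML60218. The median log2 fold change over all genes was 0.0054 in each comparison.

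After the siRNA, 3 of 10 genes tested that supply acetyl-CoA and malonyl-CoA were higher and 3 lower, with a median of 0.04. Under upper quartile scaling or total counts 5 were higher and 2 lower, and on TPM 3 and 1. SLC25A1, the mitochondrial citrate carrier, rose from 89.5 ± 2.55 to 123 ± 3.17 CPM (log2 0.46, edgeR adjusted p = 1.63e-08), and the malic enzyme ME1 rose by 0.18 (edgeR adjusted p = 0.000521). Of the other elongation enzymes, 1 of 9 was higher and 4 were lower, with a median of −0.15, and on TPM 1 and 2. ELOVL2, which lengthens polyunsaturated chains, fell from 52.7 ± 2.01 to 29.01 ± 1.58 CPM (log2 −0.86, edgeR adjusted p = 1.22e-09), and ELOVL7 fell by 0.21 on the log2 scale (edgeR adjusted p = 0.00346), a call that TPM did not give (limma adjusted p = 0.0563). Of the other desaturases and their electron donors, 4 of 7 were higher and 0 lower, with a median of 0.17. SCD5, the second human stearoyl-CoA desaturase, rose from 64.1 ± 0.76 to 78.3 ± 0.49 CPM (log2 0.29, edgeR adjusted p = 8.83e-07), while SCD fell. CYB5R1 rose by 0.23 (edgeR adjusted p = 0.000178).

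Mitochondrial fatty acid synthesis had 1 of 6 genes higher and 4 lower, with a median of −0.26. MCAT, which loads malonyl groups there, rose by 0.44 (edgeR adjusted p = 5.59e-06), and CBR4 fell by 0.28 on the log2 scale (edgeR adjusted p = 5.45e-06). Of the acyl-CoA synthetases, 2 of 6 were higher and 2 lower, with a median of 0.04. Over the 16 alternatives the number higher and the number lower each ranged from 1 to 3. SLC27A2, which activates very long chains, fell from 18.8 ± 0.66 to 4.81 ± 0.71 CPM (log2 −1.97, edgeR adjusted p = 1.11e-09). ACSL3 rose by 0.22 (edgeR adjusted p = 0.0130), a call lost without siControl replicate 1 (0.0511) or siPOLR3A replicate 1 (0.0513) and with neighbouring transcripts counted (0.181).

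Of the enzymes that place polyunsaturated chains in phospholipids or shorten them in peroxisomes, 1 of 9 was higher and 4 were lower, with a median of −0.21. ABCD2, a peroxisomal transporter, fell by 0.59 on the log2 scale (edgeR adjusted p = 5.75e-05). Glycerolipid synthesis had 2 of 10 genes higher and 3 lower, with a median of −0.0023. GPAT4 and GPAM, which add the first acyl chain to glycerol 3-phosphate, fell by 0.43 and 0.38 on the log2 scale (edgeR adjusted p = 4.72e-08 and 6.11e-07).

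Among 22 regulators, 7 were higher and 6 lower, with a median of 0.0046. SREBF1 was at 23.8 ± 0.74 CPM in siControl and 25.8 ± 0.70 CPM in siPOLR3A (log2 0.11, edgeR adjusted p = 0.0587), and it passed under upper quartile scaling (0.00689), total counts (0.00887) or counting of neighbouring transcripts (0.0379). SREBF2, the main activator of sterol genes, fell from 171 ± 2.66 to 149 ± 1.88 CPM (log2 −0.20, edgeR adjusted p = 9.08e-06), a call that TPM did not give (limma adjusted p = 0.0732). SCAP, which escorts SREBP proteins to the Golgi, rose by 0.53 (edgeR adjusted p = 2.51e-08), and INSIG1, which retains them, rose by 0.34 (edgeR adjusted p = 1.36e-07). USF2, an E-box factor, fell by 0.80 on the log2 scale (edgeR adjusted p = 7.76e-10). Sterol synthesis and uptake split, with 3 of 7 genes higher and 3 lower and a median of 0.04, the changes with the largest size being falls of STARD4 (−0.50, edgeR adjusted p = 7.29e-09) and IDI1 (−0.38, edgeR adjusted p = 0.000826).

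Of 8 other genes listed from the surroundings of FADS1 on chromosome 11, 2 were higher after the siRNA, 1 lower and 5 not called, with a median of 0.0083. TMEM258 was at 31.8 ± 1.04 and 31.2 ± 0.16 CPM (edgeR adjusted p = 0.606) and FEN1 at 141 ± 4.70 and 137 ± 2.24 CPM (edgeR adjusted p = 0.343). MYRF rose from 13.3 ± 1.05 to 17.7 ± 1.02 CPM (edgeR adjusted p = 0.000161), and SYT7 fell from 9.53 ± 0.04 to 6.59 ± 0.49 CPM (edgeR adjusted p = 5.35e-05).

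The counts with ML60218 depended on the scaling and are given first on TMM-scaled counts. The supply genes had 1 of 10 higher and 3 lower (median −0.06), the other elongation enzymes 0 of 9 and 4 (−0.08), and the other desaturases and donors 0 of 6 and 2 (−0.12). Mitochondrial synthesis had 3 of 6 higher and 2 lower (−0.05), and the acyl-CoA synthetases 1 of 6 and 1 (0.0048). The regulators had 2 of 22 higher and 6 lower (−0.05), the acyl acceptor and peroxisomal genes 0 of 9 and 5 (−0.14), glycerolipid synthesis 0 of 10 and 4 (−0.15), and sterol genes 1 of 7 and 3 (−0.07). On TPM the counts higher and lower were 1 and 1 for supply, 0 and 0 for elongation, 0 and 1 for desaturases and donors, 3 and 0 for mitochondrial synthesis, 4 and 1 for the regulators, 1 and 1 for the acyl acceptor and peroxisomal genes, 0 and 1 for glycerolipid synthesis and 1 and 0 for sterol genes. Without 1 library, the number lower was 1 to 2 for elongation and 1 to 5 for desaturases and donors.

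The lowest called values in these lists were those of LPCAT1, which remodels phosphatidylcholine, from 47.2 ± 5.81 to 24.6 ± 4.62 CPM (log2 −0.94, edgeR adjusted p = 0.00885, and 0.0542 without ML60218 replicate 3), and DEGS1, the dihydroceramide desaturase, from 216 ± 2.63 to 131 ± 17.3 CPM (log2 −0.72, edgeR adjusted p = 0.00199). IDH1, a cytosolic source of NADPH, fell from 133 ± 2.38 to 93.2 ± 10.3 CPM (log2 −0.52, edgeR adjusted p = 0.00194). ACACB, the second acetyl-CoA carboxylase, rose by 0.30 (edgeR adjusted p = 0.00501). NFYA, a subunit of the factor that binds CCAAT boxes, fell from 94.8 ± 0.69 to 69.6 ± 6.13 CPM (log2 −0.45, edgeR adjusted p = 0.000518), and the nuclear receptor RXRA by 0.42 on the log2 scale (edgeR adjusted p = 0.00637). GPAT4 fell by 0.42 (edgeR adjusted p = 0.000208) and AGPAT2 by 0.34 (0.00535) on that scale. SLC27A4 fell by 0.37 (edgeR adjusted p = 0.000901) and AGPAT3 by 0.33 (0.000818) on the log2 scale. NDUFAB1, the mitochondrial acyl carrier, fell by 0.26 (0.00615), and OXSM rose by 0.30 (0.00871). Smaller changes were those of TECR (−0.19, edgeR adjusted p = 0.0138), HACD3 (−0.18, 0.00115), HMGCS1 (−0.19, 0.00165), CYB5A (−0.17, 0.0241) and ACSL3 (0.24, 0.0156). Without DMSO replicate 1 neither TECR (0.0633) nor ACSL3 (0.0553) was called, and without ML60218 replicate 2 TECR was not (0.0510). The CYB5A call was lost under 9 of 16 alternatives, among them upper quartile scaling (0.0678), total counts (0.139) and leaving out DMSO replicate 2 (0.112), DMSO replicate 3 (0.0806), ML60218 replicate 2 (0.0618) or ML60218 replicate 3 (0.0552).

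SREBF1 (24.5 ± 2.44 and 27.1 ± 0.72 CPM, edgeR adjusted p = 0.119), SREBF2 (166 ± 1.91 and 164 ± 3.47 CPM, 0.735) and INSIG1 (196 ± 4.503 and 191 ± 6.89 CPM, 0.437) were not called after ML60218. On TPM, SREBF1 (0.32, limma adjusted p = 0.00626) and SREBF2 (0.20, limma adjusted p = 0.0218) were called higher. SREBF1 was also called with total counts (edgeR adjusted p = 0.0312), with neighbouring transcripts counted (0.0271) and without DMSO replicate 3 (0.0208). On TPM the calls of ACACB, TECR, HACD3, CYB5A, NDUFAB1, RXRA, AGPAT3, GPAT4, HMGCS1 and TMEM258 were not made, with limma adjusted p from 0.0603 to 0.938. Of the chromosome 11 neighbours, 2 of 8 were higher and 4 lower with ML60218. FEN1 fell from 189 ± 1.48 to 129 ± 12.3 CPM (edgeR adjusted p = 0.000518) and TMEM258 from 37.2 ± 1.49 to 31.03 ± 2.61 CPM (0.00934). MYRF was at 11.6 ± 0.48 and 10.8 ± 0.26 CPM (0.241), and BEST1 rose from 1.66 ± 0.19 to 4.11 ± 0.53 CPM (edgeR adjusted p = 0.000266).

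**Figure D5:**
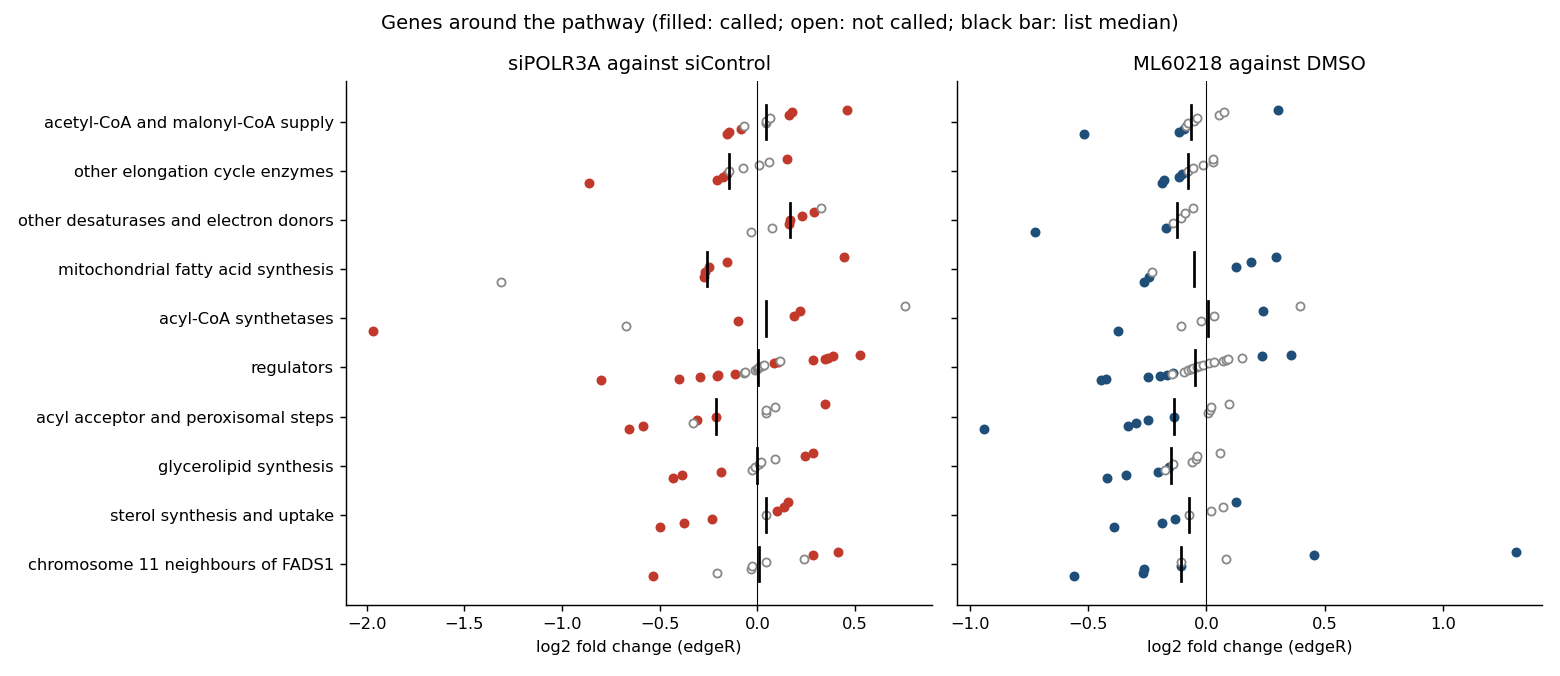
edgeR log2 fold changes (horizontal axis) of the genes in each list after the siRNA (left) and after ML60218 (right), with 1 point per gene, filled where called, and a black bar at the list's median. After the siRNA the single genes spread to both sides, from SLC27A2 at −1.97 to SCAP at 0.53 among those called, while after ML60218 the called genes lie mostly below 0 on these TMM-scaled counts, with BEST1 at 1.31 as the highest.

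Among the genes whose log2 CPM followed FADS1 most closely over the 12 libraries, of 10337 protein-coding genes with a mean of at least 8 CPM, were KIF5B (Pearson r = 0.9995), BTBD1 (0.9985), SSRP1 (0.9979) and PITPNB (0.9978). The 12 libraries share 4 groups, and the siRNA step dominates such a measure, so these values are a description. By Spearman's rho the same 4 genes were between 0.916 and 0.979. Within groups, as deviations from the 4 group means, their r with FADS1 was between −0.23 and 0.26. Of the other members, FADS2 (r = 0.995, the 21st of 10337) and SCD (r = 0.981, the 215th) were most like FADS1, and FASN (−0.76), FADS3 (−0.70) and ELOVL1 (−0.62) were least like it. Within groups this order did not hold: the r with FADS1 was 0.60 for ELOVL1, 0.46 for FADS2, 0.33 for ELOVL5 and 0.27 for FADS3. It was 0.24 for SCD, 0.14 for ACLY, 0.0082 for ELOVL6, −0.0030 for FASN and −0.48 for ACACA.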

How the data were processed

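The deposited table held, for each of 12 libraries, estimated counts and TPM per transcript, in columns named as salmon writes them per the file headers. The submitters' processing notes name bcl2fastq, Trim Galore, DESeq2 and hg38. The quantifier's version, strand setting and transcript release are not given in the sources used here.

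Transcripts were matched by stable ID to GENCODE release 29, which may not be the authors' release. Of 194142 transcripts, 158359 (81.6%) matched, and the rest, 8.37% to 8.97% of reads, were left out. Each gene's estimated counts were added up over its transcripts and rounded to whole numbers. The test was edgeR 4.0.16 (R 4.3.3) quasi-likelihood with TMM scaling and filterByExpr (minimum count 10, minimum total 15), with Benjamini-Hochberg adjustment over all genes and a call at an adjusted p under 0.05. All 10 genes passed the filter. The SE is the log2 fold change divided by the square root of F. Each experiment was fitted alone, and their difference over all 12 libraries. Scripts were tested on simulated data. An exact permutation test of 3 libraries against 3 cannot go below a two-sided p of 0.10, so none was used.

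Alternatives were other scalings, DESeq2 1.42.0, no filter, a replicate block, isoform lengths, neighbouring transcripts counted (unmatched rows between 2 rows of 1 gene), limma 3.58.1 on log2(TPM + 0.5) or log2(TPM + 0.1) for genes of at least 0.5 TPM, and leaving out each library. Of each list the text names the 2 called genes with the largest absolute log2 fold change at a mean of at least 1 CPM, and always SREBF1, SREBF2, INSIG1, TMEM258, FEN1 and MYRF. A few genes that this rule would name are not reported here. The members and lists were chosen with earlier results of these data known.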

Additional observations from a re-analysis of the deposited data

How the results depend on the processing

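All 7 calls among the members tested after the siRNA were kept under each alternative and without each library. With ML60218, limma on TPM called 4002 genes with a pseudocount of 0.5 and 3987 with 0.1, against 6029. Leaving out 1 library gave 7997 to 8361 called genes for the siRNA, 4159 to 6501 for ML60218 and 7504 to 8266 for the difference, and 7, 4 and 5 to 6 called members. Calls that were higher made up 48.4% after the siRNA, 58.7% under upper quartile scaling and 57.0% under total counts. For ML60218 these shares were 46.4%, 58.6% and 67.0%, and for the difference 48.2%, with 31.9% on TPM. The labels share replicate numbers but do not say that they pair libraries. Deviations of same-numbered libraries correlated at −0.0289, 0.0438 and −0.11 for the siRNA and −0.0238, 0.0579 and −0.0456 for ML60218. With the replicate block 8493, 5393 and 7658 genes and 7, 5 and 5 members were called. ACACA was then called with ML60218 (0.24, edgeR adjusted p = 0.0116), while CYB5A with ML60218 (0.0509) and the difference of ELOVL5 (0.0539) were not. After the siRNA FADS1 was at −1.78 under upper quartile scaling, −1.79 under total counts, −1.63 with isoform lengths and −1.58 and −1.60 on TPM.

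Changes of sign concerned values not called with TMM scaling, except HMGCS1 with ML60218, and the cause was not tested. Of these, ELOVL5 (limma adjusted p = 0.0300) and SREBF2 (0.0218) were called higher with ML60218 on TPM. After the siRNA, ACACA was 0.014 under upper quartile scaling, 0.0042 under total counts, 0.056 with isoform lengths, 0.075 and 0.079 on TPM, and between −0.14 and 0.014 without 1 library. Without 1 library FADS3 was between −0.0023 and 0.034. Under upper quartile scaling and total counts TMEM258 was 0.032 and 0.022, and FEN1 0.025 and 0.016. With ML60218 and upper quartile scaling SCD was 0.013, ELOVL5 0.031, SREBF2 0.024 and INSIG1 0.0015. With total counts SCD was 0.044, ELOVL5 0.062, FADS1 0.0013, ACLY 0.0057, SREBF2 0.055 and INSIG1 0.033. With isoform lengths ELOVL5 was 0.0068, FADS3 −0.034 and SREBF2 0.065. On TPM SCD was 0.11, ELOVL5 0.15, FADS1 0.080, ACLY 0.083 and 0.084, SREBF2 0.20, INSIG1 0.11, MYRF 0.0058 and 0.0063 and HMGCS1 0.0074. Without 1 library ELOVL5 was between −0.025 and 0.011, SREBF2 between −0.031 and 0.00045 and FADS3 between −0.020 and 0.048. In the difference, FADS3 was −0.022 with total counts, −0.0046 with neighbouring transcripts and between −0.026 and 0.043 without 1 library. ELOVL6 was −0.012 with total counts, −0.016 with isoform lengths, −0.13 and −0.14 on TPM and between −0.069 and 0.061 without 1 library. Depth limits FADS3, with 365 to 515 estimated reads per library.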
